A study of Homo sapiens with 6 samples.

Results

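Natural antisense RNAs are transcripts read from the strand opposite a known gene, and they carry that gene's name with the ending -AS and a number. The 235 antisense RNAs described here are those named in this way that averaged at least 2 CPM (the share of a library's reads that fall on a gene, set to a common total) over all 6 libraries and whose sense gene had a row of its own, out of 16311 genes in the table. They were chosen on their mean level, not on the difference between groups, from 415 rows so named. Another 147 such rows had a sense row but averaged less than 2 CPM, 14 reached 2 CPM without a sense row, and 19 did neither. The members have 233 distinct sense genes, since PTOV1 and PAXIP1 each have a pair of antisense members. Just inside the limit were SEC24B-AS1 at 2.01 CPM, ZNF793-AS1 at 2.08 CPM and UXT-AS1 at 2.08 CPM, and just outside it were CCNT2-AS1 at 1.995 CPM, SSBP3-AS1 at 1.99 CPM and GEMIN7-AS1 at 1.97 CPM. In all, 7 members averaged under 2 CPM in the untreated libraries and 11 averaged under 2 CPM in the FIR libraries, so these were kept through the group where they were higher. Among those described below they are ZNF350-AS1, GDNF-AS1, ADORA2A-AS1, LIFR-AS1, TTN-AS1 and SRGAP3-AS4, and, on the other side, TMPO-AS1, ATP2A1-AS1, UXT-AS1, EP300-AS1, MAST4-AS1, VLDLR-AS1 and ARRDC3-AS1.

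The libraries were made from LNCaP, an established, androgen-sensitive line of human prostate adenocarcinoma cells, grown in serum-containing medium. Of the 6 libraries, 3 came from untreated cells and 3 from cells that had received 40 Gy in all of what the labels call FIR, an abbreviation they do not spell out and that the series title links to radiation. No genetic change to the line is given, and neither are the fractions, the time of harvest or the share of cells that survived. Replicates are labelled BR1 to BR3 within each group, a tag that is not spelled out and may mean biological replicate. No label says whether they were separate cultures, so every p-value here rests on the scatter of these 6 libraries. Part or all of that scatter may be technical. Library totals ran from 16805679 to 21004697 reads in the untreated group and from 15703483 to 16542096 in the FIR group, so 3 reads correspond to 0.143 to 0.191 CPM. All 9 luminal prostate markers listed were present, with summed levels of 7668 to 8286 CPM in untreated and 7530 to 8458 CPM in FIR libraries. None of 5 immune markers had a row, and of 5 fibroblast and 4 endothelial markers only COL1A1 and VWF had one, both lower in FIR. Differences are FIR over untreated, relative to the other genes of a library, and in such bulk RNA fewer cells of a kind and less RNA per cell cannot be told apart.

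Antisense RNAs can arise from a promoter shared with the sense gene and fired in both directions, from a start inside the sense gene, or from a neighbouring gene whose far end runs into it. Some act on the sense gene nearby through chromatin, transcription itself or pairing with the sense RNA, others act elsewhere in the cell, and for many no function is known. Many are short-lived in the nucleus, where the RNA exosome and early termination by the Integrator complex limit them.

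The promoter windows of 3 pairs and of 1 further sense gene are shown because these pairs carry the main contrasts: TPT1 and TPT1-AS1 moved in opposite directions, TMPO and TMPO-AS1 fell together, and OIP5 and SPAG5 fell far more than the RNAs opposite them. Sequences are RefSeq windows on GRCh38.p14, from 250 bases before to 50 bases after the RefSeq start site, each on the strand of its own gene. RefSeq windows were matched for 175 of the antisense RNAs and 194 of the sense genes. SPAG5-AS1 is named only. In the first pair, TPT1 (chr13:45341134-45341433, minus strand) and TPT1-AS1 (chr13:45341095-45341394, plus strand), capitals mark the 261 bases that both windows hold, read from opposite strands.
TPT1: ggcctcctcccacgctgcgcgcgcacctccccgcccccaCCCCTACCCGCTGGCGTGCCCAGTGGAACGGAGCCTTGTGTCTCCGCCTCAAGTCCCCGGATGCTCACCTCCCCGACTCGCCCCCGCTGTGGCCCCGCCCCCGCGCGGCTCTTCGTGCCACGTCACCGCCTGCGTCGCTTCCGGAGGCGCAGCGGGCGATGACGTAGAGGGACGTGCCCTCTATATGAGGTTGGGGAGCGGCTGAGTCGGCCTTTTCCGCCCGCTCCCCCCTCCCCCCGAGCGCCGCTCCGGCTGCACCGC
TPT1-AS1: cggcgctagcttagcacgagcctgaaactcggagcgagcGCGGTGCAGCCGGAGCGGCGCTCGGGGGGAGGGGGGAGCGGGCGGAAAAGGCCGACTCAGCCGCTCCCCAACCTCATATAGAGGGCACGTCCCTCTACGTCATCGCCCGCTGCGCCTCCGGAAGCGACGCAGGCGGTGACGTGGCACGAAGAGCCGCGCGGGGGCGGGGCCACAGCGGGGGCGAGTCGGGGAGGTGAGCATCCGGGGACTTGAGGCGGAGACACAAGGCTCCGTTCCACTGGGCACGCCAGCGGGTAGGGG
The start sites of TPT1 and TPT1-AS1 in RefSeq are 162 bases apart, so these windows are largely the same DNA. In the other windows capitals mark 3 motifs known from promoters of genes used in cell division, searched on both strands: CCAAT, the core of the CCAAT box; TTTGAA, a core of the cell cycle homology region; and TTCCCGC, an E2F-type site. Of 35116 RefSeq promoter windows of this length, 34.6% held CCAAT, 15.2% held TTTGAA and 6.55% held TTCCCGC. No marked motif overlapped another. The windows are TMPO (chr12:98515323-98515622, plus), TMPO-AS1 (chr12:98516177-98516476, minus), OIP5 (chr15:41332542-41332841, minus), OIP5-AS1 (chr15:41283740-41284039, plus) and SPAG5 (chr17:28598976-28599275, minus).
TMPO: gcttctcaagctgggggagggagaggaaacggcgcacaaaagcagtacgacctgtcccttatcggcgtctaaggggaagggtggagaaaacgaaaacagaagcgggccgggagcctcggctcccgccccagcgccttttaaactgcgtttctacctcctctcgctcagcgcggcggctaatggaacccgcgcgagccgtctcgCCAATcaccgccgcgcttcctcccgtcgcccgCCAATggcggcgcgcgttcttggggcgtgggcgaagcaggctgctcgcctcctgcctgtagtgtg
TMPO-AS1: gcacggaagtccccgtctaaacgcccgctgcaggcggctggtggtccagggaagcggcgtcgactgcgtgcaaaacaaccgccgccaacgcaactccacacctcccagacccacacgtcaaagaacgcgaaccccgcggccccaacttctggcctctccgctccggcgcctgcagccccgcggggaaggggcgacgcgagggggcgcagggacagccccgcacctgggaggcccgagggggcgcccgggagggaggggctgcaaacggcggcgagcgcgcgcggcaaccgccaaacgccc
OIP5: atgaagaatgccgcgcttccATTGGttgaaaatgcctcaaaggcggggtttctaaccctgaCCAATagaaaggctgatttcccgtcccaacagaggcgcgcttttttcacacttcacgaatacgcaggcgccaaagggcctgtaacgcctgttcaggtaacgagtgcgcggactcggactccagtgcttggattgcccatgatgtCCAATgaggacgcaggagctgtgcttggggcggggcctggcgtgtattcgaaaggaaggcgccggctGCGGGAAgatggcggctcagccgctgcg
OIP5-AS1: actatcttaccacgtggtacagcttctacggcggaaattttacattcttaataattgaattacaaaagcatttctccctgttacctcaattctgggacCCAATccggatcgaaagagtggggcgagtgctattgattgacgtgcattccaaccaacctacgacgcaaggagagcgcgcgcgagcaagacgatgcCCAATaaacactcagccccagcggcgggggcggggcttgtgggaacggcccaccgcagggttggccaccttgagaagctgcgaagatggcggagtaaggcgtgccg
SPAG5: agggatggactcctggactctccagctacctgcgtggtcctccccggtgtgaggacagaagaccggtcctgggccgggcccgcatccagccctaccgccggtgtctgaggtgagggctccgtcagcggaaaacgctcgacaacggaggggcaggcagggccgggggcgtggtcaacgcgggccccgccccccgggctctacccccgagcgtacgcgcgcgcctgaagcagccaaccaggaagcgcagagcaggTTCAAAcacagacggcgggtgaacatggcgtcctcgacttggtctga
The TMPO window held 2 CCAAT matches. The TMPO-AS1 window, whose RefSeq start site lies 653 bases away, held none of the motifs. RefSeq start sites lie 196 bases from the deposited start for TMPO-AS1, 61 for TMPO and 187 for TPT1, and match it in the other windows. Most of the TMPO-AS1 window lies inside the gene as counted, so it covers little of the DNA before the deposited start. The OIP5 window held 3 CCAAT matches and 1 TTCCCGC match, and the OIP5-AS1 window held 2 CCAAT matches. The start sites of this pair are 48601 bases apart, so the windows are different DNA. The SPAG5 window held 1 TTTGAA match, and the windows of TPT1 and TPT1-AS1 held none of the motifs. Each match is a run of letters and does not show that a factor binds there.

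Of the 235 antisense RNAs, 50 rose, 37 fell and 148 did not pass, at an adjusted p under 0.05 in edgeR's quasi-likelihood test with Benjamini-Hochberg adjustment over all 16311 genes. That is 37.0% called, where 48.7% of all genes were called (25.4% higher and 23.4% lower). Of the 12974 genes that averaged at least 2 CPM, 53.6% were called. Of the 233 sense genes, 78 rose, 49 fell and 106 did not pass, or 54.5% called. The median log2 fold change was 0.03 over the antisense RNAs, 0.08 over the sense genes and 0.01 over all genes. Antisense changes ran from -2.37 to 2.10 on the log2 scale and sense changes from -4.50 to 3.15. Called changes of at least 2-fold numbered 11 up and 9 down among the antisense RNAs, and 14 up and 11 down among the sense genes, where 8.62% of all genes rose and 7.37% fell that far. The antisense counts include ZNF350-AS1, GDNF-AS1 and ADORA2A-AS1 (up) and TMPO-AS1, ATP2A1-AS1, UXT-AS1, EP300-AS1 and MAST4-AS1 (down). These averaged under 2 CPM in their lower group and were kept through the higher one. The part of that limit in the antisense counts was not tested. The members drew fewer reads, with a median of 6.92 CPM against 39.3 CPM for the sense genes. The median standard error of a log2 fold change, worked back from the change and its test statistic, was 0.19 against 0.10. Of the 79 scarcest members 25 were called, of the 77 in the middle 29, and of the 79 most abundant 33, with median standard errors of 0.25, 0.19 and 0.13. The part of this precision in the lower share of antisense calls was not tested. All libraries of one group lay above all of the other in 57 antisense RNAs for FIR higher and 57 for FIR lower, where 26.3% and 31.1% of all genes did so. Among 119 intergenic RNAs with a LINC name and at least 2 CPM, 30 rose and 22 fell, or 43.7% called.

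Both members of a pair were called in 59 of the 235 pairs. In 30 pairs both rose, in 14 both fell, and in 15 they went opposite ways. For comparison, rows paired with the nearest listed gene on the other strand were both called in the same direction in 16.7% of 16128 pairs and in opposite directions in 8.38%. The 44 and 15 pairs here are 18.7% and 6.38% of 235, near those shares, and no test of the difference was made. In 28 pairs the antisense RNA alone was called (14 higher, 14 lower), in 70 the sense gene alone (39 higher, 31 lower), and in 78 neither. Across the 235 pairs the log2 fold changes of antisense and sense had a Pearson correlation of 0.38 and a Spearman correlation of 0.36, against 0.22 and 0.23 over the 16128 nearest opposite-strand rows. These correlations are descriptions, since the points share the same 6 libraries and their depths, and overlapping genes may share reads. The nearest rows were taken at any distance, so the distance between partners was not matched to that of the 235 pairs. Rows nearest to each other entered from both sides.

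**Figure D1:**
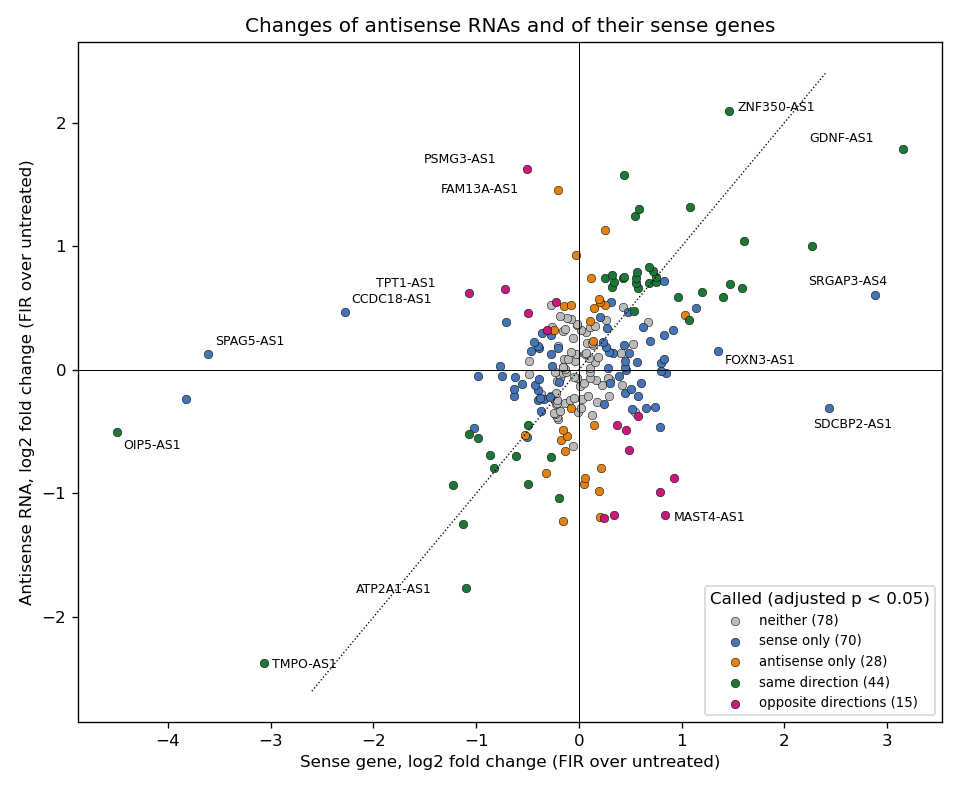
Log2 fold change (FIR over untreated) of each antisense RNA (vertical axis) against that of its sense gene (horizontal axis) for the 235 pairs, with 1 point per pair and colours for the calls of both at an adjusted p under 0.05. The 44 pairs called in the same direction lie in the lower left and upper right, the 15 called in opposite directions in the other corners, and sense changes reach -4.50 while the antisense RNA of that pair, OIP5-AS1, stands at -0.50.

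The largest gains of antisense relative to sense reads came from sense genes that fell while their antisense RNA changed much less. OIP5, which helps load the centromere histone CENP-A, is encoded at chr15:41309273-41332591 (ENSG00000104147.9), and OIP5-AS1, a conserved long RNA also called Cyrano, at chr15:41283990-41309737 on the other strand (ENSG00000247556.6), so the pair meets tail to tail. OIP5 had 8.08, 7.62 and 6.43 CPM in the untreated libraries and 0.544, 0.255 and 0.122 CPM in the FIR libraries. OIP5-AS1 had 163, 166 and 160.4 CPM untreated and 107, 117 and 108 CPM in FIR. Both were lower in every FIR library, OIP5 by 22.6-fold (log2 fold change -4.50, SE 0.34, adjusted p = 4.3e-08 in edgeR) and OIP5-AS1 by 1.42-fold (log2 fold change -0.50, SE 0.07, adjusted p = 4.4e-05 in edgeR). Per length of transcript (RPKM, CPM per kilobase of exon), OIP5-AS1 stood 2.09 times as high as OIP5 in untreated and 34.1 times as high in FIR libraries. OIP5 in FIR libraries 2 and 3 stood near or below the level of 3 reads. The sizes of its fall and of the ratio changes of this pair therefore rest on few reads. The log2 ratio of antisense to sense reads changed by 4.09 (95% interval 3.14 to 5.05, adjusted p = 9.2e-07 in limma on voom-weighted log2 ratios, a test chosen after seeing the data). OIP5-AS1 was the second most abundant member after GAS6-AS1.

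SPAG5, a mitotic spindle protein also called astrin, starts 235 bases from SPAG5-AS1 and overlaps it head to head. SPAG5 (chr17:28577565-28599025) had 104, 100.8 and 76.5 CPM untreated and 7.31, 7.32 and 7.58 CPM in FIR, a 12.2-fold fall (log2 fold change -3.61, SE 0.13, adjusted p = 1.2e-11 in edgeR). SPAG5-AS1 (chr17:28598790-28617377) had 2.96, 2.57 and 1.67 CPM untreated and 2.9, 1.91 and 2.81 CPM in FIR. The sense groups were far apart and the antisense groups overlapped, with an antisense change of 0.13 (SE 0.28, adjusted p = 0.73 in edgeR). The log2 ratio changed by 3.74 (95% interval 3.15 to 4.34, adjusted p = 8.0e-09 in limma). CCDC18, a coiled-coil protein gene whose far end overlaps that of CCDC18-AS1, had 15.7, 14.2 and 10.9 CPM untreated and 3.32, 2.74 and 2.02 CPM in FIR (log2 fold change -2.28, SE 0.21, adjusted p = 3.5e-07 in edgeR). CCDC18-AS1 had 13.8, 13.9 and 24.3 CPM untreated and 27.6, 20.8 and 20.7 CPM in FIR, so untreated library 3 lay among the FIR libraries. Its change of 0.47 (SE 0.19) did not pass (adjusted p = 0.054 in edgeR), and without that library it was 0.76 (adjusted p = 0.00035). It also passed without FIR library 2 (adjusted p = 0.0499), in DESeq2 (adjusted p = 0.040) and in limma-voom (adjusted p = 0.029). The log2 ratio of this pair changed by 2.82 (95% interval 2.09 to 3.54).

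In all, 11 sense genes fell at least 2-fold. Their antisense RNAs fell in 6 pairs (TMPO, ATP2A1, RUSC1, MNX1, ZBED3 and OIP5), rose in 1 (TPT1) and did not pass in 4, among them those of UGDH, SPAG5 and CCDC18. The antisense changes opposite these genes ran from -2.37 to 0.62 with a median of -0.50. Among 14 sense genes that rose at least 2-fold, the antisense RNA rose in 10, fell in none and did not pass in 4 (SDCBP2, FOXN3, SLC25A21 and SRGAP3, the last for SRGAP3-AS4). The antisense changes opposite these ran from -0.31 to 2.10 with a median of 0.65. Seen from the other side, of 11 antisense RNAs that rose at least 2-fold, the sense gene rose for 8, fell for 1 (PSMG3) and did not pass for 2 (ZNF710 and FAM13A). Of 9 that fell at least 2-fold, the sense gene fell for 4, rose for 3 and did not pass for 2. Over all genes 25.4% rose and 23.4% fell. No share was worked out for nearest opposite-strand rows whose partner moved 2-fold. Whether these counts differ from such rows was not tested.

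**Figure D2:**
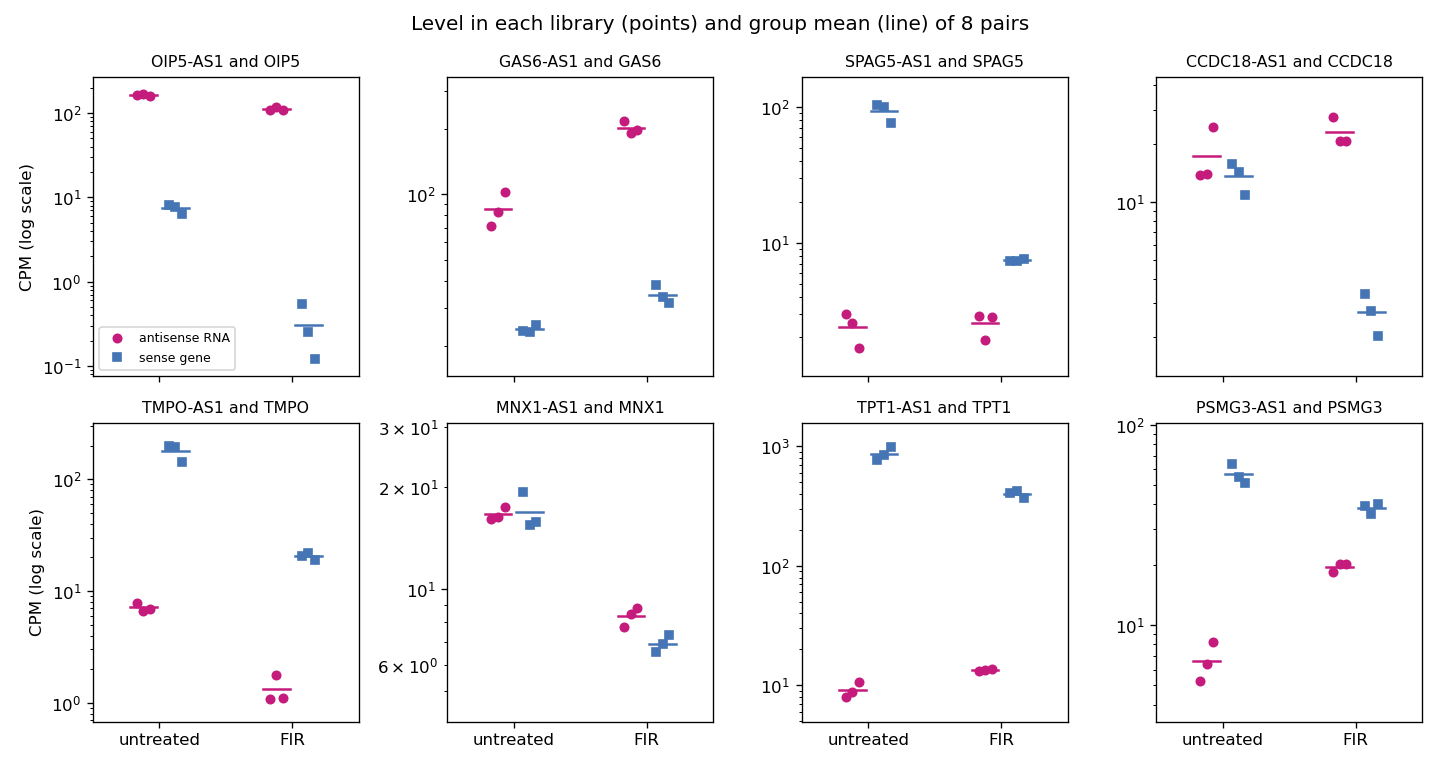
Level in CPM (log scale) of the antisense RNA (circles) and the sense gene (squares) in each library of 8 pairs, with short lines at the group means of 3 libraries. OIP5 and SPAG5 fall far more than their antisense RNAs, GAS6 and GAS6-AS1 rise together, TMPO and MNX1 fall together with their antisense RNAs, and TPT1 and PSMG3 fall while their antisense RNAs rise.

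Pairs that fell together were led by TMPO, which encodes the lamina-associated polypeptides of the nuclear envelope. TMPO had 199.8, 194 and 143 CPM untreated and 20.6, 22.1 and 19.1 CPM in FIR, an 8.36-fold fall (log2 fold change -3.06, SE 0.12, adjusted p = 3.8e-11 in edgeR). TMPO-AS1 (chr12:98512973-98516422) had 7.82, 6.67 and 6.9 CPM untreated and 1.09, 1.78 and 1.1 CPM in FIR, a 5.18-fold fall (log2 fold change -2.37, SE 0.24, adjusted p = 1.1e-06 in edgeR). This was the largest fall of any member, and the change of the log2 ratio, 0.68 (95% interval 0.06 to 1.29), did not pass (adjusted p = 0.071 in limma). Of the exon bases of TMPO-AS1, 21.2% lie inside TMPO exons, so part of its reads cannot be assigned if the counting ignored strand. MNX1, a homeobox transcription factor gene, had 19.2, 15.4 and 15.7 CPM untreated and 6.53, 6.88 and 7.34 CPM in FIR, and MNX1-AS1 had 16, 16.3 and 17.4 CPM untreated and 7.74, 8.47 and 8.8 CPM in FIR. These partners do not overlap, and they fell by 1.22 and 0.93 on the log2 scale (adjusted p = 6.8e-06 and 3.5e-05 in edgeR). RUSC1-AS1, with 9.51, 10.8 and 11.4 CPM untreated and 4.47, 4.08 and 4.28 CPM in FIR, fell by 1.24, and RUSC1 fell by 1.12. ATP2A1-AS1, which lies inside the gene of a muscle-type calcium pump, fell by 1.76 (SE 0.26) and ATP2A1 by 1.10 (SE 0.20).

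Pairs that rose together included the most abundant member. GAS6 encodes a ligand of the TAM receptor kinases, and GAS6-AS1 (chr13:113815630-113845744) overlaps its far end. GAS6-AS1 had 71, 82.9 and 102 CPM untreated and 216, 192 and 198 CPM in FIR, a 2.46-fold rise (log2 fold change 1.30, SE 0.11, adjusted p = 1.4e-07 in edgeR). GAS6 had 23.3, 23.3 and 25 CPM untreated and 38.1, 33.7 and 31.4 CPM in FIR, a 1.5-fold rise. The groups did not overlap for either, and the log2 ratio rose by 0.74 (95% interval 0.47 to 1.01, adjusted p = 0.00015 in limma). Per length GAS6-AS1 stood 3.0 times as high as GAS6 in untreated and 4.93 times as high in FIR libraries. GATA2, a zinc-finger transcription factor that works with the androgen receptor in prostate cells, had 245, 229.6 and 246 CPM untreated and 366, 305 and 349.9 CPM in FIR. GATA2-AS1, whose exons share no base with those of GATA2, had 84.8, 82.6 and 77.5 CPM untreated and 136, 106 and 153 CPM in FIR. They rose by 0.56 and 0.75 on the log2 scale (adjusted p = 4.1e-05 and 6.1e-05 in edgeR), and the change of their ratio, 0.17, did not pass (adjusted p = 0.21 in limma).

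The largest antisense rise was that of ZNF350-AS1, opposite the gene of a KRAB zinc-finger repressor. ZNF350-AS1 had 1.37, 1.67 and 0.893 CPM untreated and 5.92, 4.2 and 6.3 CPM in FIR, a 4.27-fold rise (log2 fold change 2.10, SE 0.27, adjusted p = 1.5e-05 in edgeR). ZNF350 had 10.7, 10.9 and 8.69 CPM untreated and 34.3, 18 and 28.2 CPM in FIR, a 2.76-fold rise. No exon base is shared in this pair. GDNF, the glial cell line-derived neurotrophic factor, showed the largest rise of any sense gene, from 0.158, 0.333 and 0.238 CPM to 2.18, 1.91 and 2.38 CPM (log2 fold change 3.15, SE 0.40, adjusted p = 1.2e-05 in edgeR). GDNF-AS1, which spans it, had 0.528, 1 and 1.49 CPM untreated and 2.6, 4.14 and 3.24 CPM in FIR (log2 fold change 1.79, SE 0.35, adjusted p = 0.00055 in edgeR). Both were scarce, with untreated levels of GDNF near those of 3 reads. The antisense RNAs of SAP30L, a subunit of a histone deacetylase complex, and of ZMIZ1, a transcriptional coregulator, rose by 1.58 and 1.24 while the sense genes rose by 0.44 and 0.55. ADORA2A-AS1, opposite an adenosine receptor gene, rose by 1.31 and ADORA2A by 1.08, though without FIR library 3 neither passed (adjusted p = 0.064 and 0.084), and ADORA2A also missed the threshold without untreated library 1 or 3 (adjusted p = 0.069 and 0.062).

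In 15 pairs the calls went in opposite directions, 6 with the antisense RNA higher and the sense gene lower and 9 the other way. All 15 passed the limma test of the ratio. That is not separate evidence, since the pairs were picked on opposite calls in the same 6 libraries. TPT1 encodes the translationally controlled tumour protein, and its start lies 25 bases from that of TPT1-AS1 in the deposited annotation. TPT1 (chr13:45333471-45341370) had 769.9, 854 and 984 CPM untreated and 404, 424 and 369 CPM in FIR (log2 fold change -1.07, SE 0.09, adjusted p = 1.3e-07 in edgeR). TPT1-AS1 (chr13:45341345-45417975) had 7.98, 8.76 and 10.7 CPM untreated and 13.1, 13.6 and 13.8 CPM in FIR (log2 fold change 0.62, SE 0.15, adjusted p = 0.0024 in edgeR). The groups did not overlap for either partner, only 26 of their exon bases overlap, and the log2 ratio rose by 1.69 (95% interval 1.38 to 2.0, adjusted p = 4.3e-08 in limma). PSMG3, a chaperone of proteasome assembly, had 63.8, 54.8 and 51 CPM untreated and 39.2, 36 and 40.1 CPM in FIR (log2 fold change -0.50, SE 0.10, adjusted p = 0.00065 in edgeR). PSMG3-AS1 (chr7:1570073-1589626) had 5.28, 6.38 and 8.21 CPM untreated and 18.4, 20.1 and 20.2 CPM in FIR (log2 fold change 1.62, SE 0.16, adjusted p = 7.6e-07 in edgeR). The antisense RNA rose 3.08-fold while the sense gene fell 1.42-fold, and the log2 ratio rose by 2.14 (95% interval 1.73 to 2.56).

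In the other 4 pairs with the antisense RNA higher the ratio changed less. CBR3-AS1 rose by 0.65 and CBR3, a carbonyl reductase, fell by 0.72. SVIL-AS1 rose by 0.46 and SVIL, the actin-binding supervillin, fell by 0.50. PPP1R26-AS1 and NOP14-AS1 rose by 0.55 and 0.32 while PPP1R26, a regulatory subunit of a protein phosphatase, and NOP14, a factor of ribosome assembly, fell by 0.22 and 0.31. The PPP1R26 and NOP14 pairs were not followed gene by gene when libraries were left out. The call of CBR3 was lost without any of the untreated libraries or without FIR library 3 (adjusted p from 0.056 to 0.17) and in DESeq2 (adjusted p = 0.060), that of SVIL-AS1 without untreated library 1 or FIR library 3 (adjusted p = 0.056 and 0.058), and that of SVIL without untreated library 3 or FIR library 1 (adjusted p = 0.072 and 0.076).

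Among the 9 pairs with the antisense RNA lower, MAST4-AS1 and ARRDC3-AS1 had the largest ratio changes. MAST4 encodes a microtubule-associated kinase, and MAST4-AS1 (chr5:67001383-67003953) lies within it without sharing an exon base. MAST4-AS1 had 2.91, 2.43 and 3.87 CPM untreated and 0.846, 1.85 and 1.22 CPM in FIR, and MAST4 had 24.9, 29.5 and 27 CPM untreated and 49.8, 42 and 48.5 CPM in FIR. They changed by -1.17 (SE 0.32) and 0.84 (SE 0.10), and the log2 ratio by -2.02 (95% interval -2.77 to -1.28, adjusted p = 0.00015 in limma). ARRDC3, an arrestin-domain protein, had 44.2, 49.3 and 56.1 CPM untreated and 94.8, 99 and 79.9 CPM in FIR, while ARRDC3-AS1 had 2.69, 3.81 and 3.39 CPM untreated and 1.57, 1.34 and 2.26 CPM in FIR. No library of these 2 pairs crossed into the other group, and the ARRDC3 log2 ratio changed by -1.82 (95% interval -2.45 to -1.20). EMC3, a subunit of the membrane protein insertase of the endoplasmic reticulum, rose by 0.34 from 64, 58.2 and 56.8 CPM to 70.1, 75.1 and 73.3 CPM. EMC3-AS1 fell by 1.18, from 12.9, 11.8 and 9.7 CPM to 5.92, 4.01 and 4.71 CPM. FOXP4-AS1, opposite a forkhead factor gene, had 7.5, 8.05 and 6.72 CPM untreated and 3.93, 2.55 and 2.87 CPM in FIR and fell by 1.20 (SE 0.20, adjusted p = 0.00019 in edgeR), and FOXP4 rose by 0.25 (SE 0.08, adjusted p = 0.024).

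The remaining 5 of these pairs were VLDLR (a lipoprotein receptor), CIRBP (the cold-inducible RNA-binding protein), SPINT1 and HPN (an inhibitor of membrane serine proteases and the prostate protease hepsin) and ATP6V0E2 (a proton pump subunit). Their antisense RNAs fell by 0.99, 0.65, 0.49, 0.44 and 0.38, and the sense genes rose by 0.79, 0.48, 0.45, 0.37 and 0.58 on the log2 scale. CIRBP-AS1 fell from 12.2, 12 and 11.1 CPM to 6.59, 8.02 and 7.03 CPM while CIRBP rose from 397, 369 and 514 CPM to 571, 575 and 577 CPM, with no overlap in either. Leaving out 1 library changed how many pairs counted as opposite: 9 of them did without untreated library 2 and 7 without FIR library 3, against 15 with all. The calls of the HPN, PPP1R26 and NOP14 pairs were not followed gene by gene. By these counts and the lost calls given for the other pairs, all of them dropped out in both settings. The call of ATP6V0E2-AS1 was lost without untreated library 1 or 3 or any FIR library (adjusted p from 0.053 to 0.13), in DESeq2 (adjusted p = 0.052) and in limma-voom (adjusted p = 0.0501). That of VLDLR-AS1 was lost without untreated library 3 (adjusted p = 0.15, log2 fold change -0.57), FIR library 1 (adjusted p = 0.085) or FIR library 3 (adjusted p = 0.070), and in limma-voom (adjusted p = 0.057). That of ARRDC3-AS1 was lost without untreated library 2 (adjusted p = 0.072) or FIR library 1 or 2 (adjusted p = 0.057 and 0.066). The rise of FOXP4 did not pass without untreated library 2 or 3 or FIR library 3 (adjusted p from 0.081 to 0.13), nor when counts were scaled by library totals alone (adjusted p = 0.066).

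The balance between partners was also read directly as the log2 ratio of antisense to sense reads in each library. In 52 pairs all FIR ratios lay above all untreated ratios and in 62 all lay below, where 26.6% and 25.6% of the nearest opposite-strand rows did so. With 3 libraries against 3 the smallest exact two-sided permutation p for such a separation is 0.1. The limma test on the ratios, adjusted over 16158 pairs, called 32 of the 235 pairs higher and 41 lower, against 21.5% higher and 20.7% lower over all pairs in that fit. Of those calls 15 came from pairs with opposite directions, 11 from the 44 pairs with the same direction, 13 from the 28 with the antisense RNA alone called, 30 from the 70 with the sense gene alone called and 4 from the 78 with neither called. The largest losses of antisense relative to sense were in SDCBP2 and SRGAP3. SDCBP2, a syntenin of the cell membrane, had 0.106, 0.571 and 0.536 CPM untreated and 2.06, 2.29 and 2.08 CPM in FIR, and SDCBP2-AS1 had 12.3, 10.2 and 11.3 CPM untreated and 8.1, 9.93 and 8.13 CPM in FIR. SDCBP2-AS1 did not pass (log2 fold change -0.31, adjusted p = 0.10 in edgeR), and the log2 ratio changed by -2.98 (95% interval -4.05 to -1.90). SDCBP2 in untreated library 1 stood below the level of 3 reads, so the size of this ratio change rests partly on few reads. SRGAP3, a GTPase-activating protein, rose from 10.2, 13.8 and 12.6 CPM to 85.2, 78.6 and 96.3 CPM, a 7.38-fold rise. SRGAP3-AS4, inside it, had 1.58, 1.76 and 2.14 CPM untreated and 3.45, 2.8 and 1.77 CPM in FIR. Its groups overlapped, and its change of 0.60 (SE 0.29) did not pass (adjusted p = 0.10 in edgeR), but without FIR library 3 it was 0.82 (adjusted p = 0.038). The log2 ratio of this pair changed by -2.32 (95% interval -3.01 to -1.63).

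**Figure D3:**
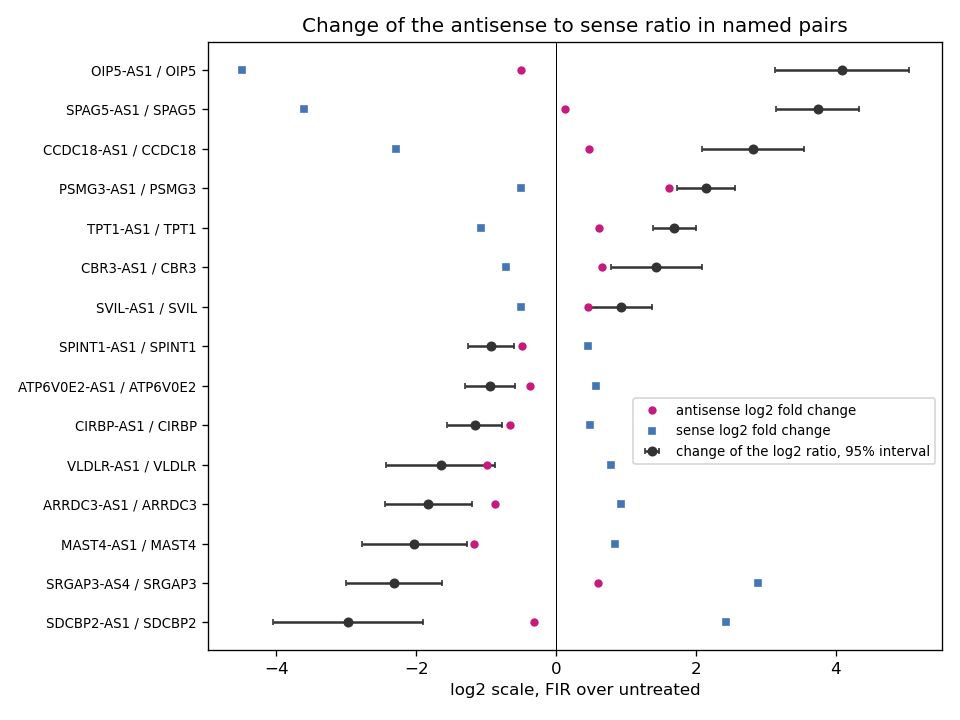
Change of the log2 ratio of antisense to sense reads with its 95% interval (dark points and bars), beside the log2 fold changes of the antisense RNA (circles) and the sense gene (squares), for 3 of the 4 largest gains, the 4 largest losses and the 10 opposite pairs whose smaller change was largest (15 pairs in all). In the top 3 pairs the sense square lies far to the left and the antisense circle near 0, and from PSMG3 down to MAST4 the circle and the square lie on opposite sides of 0.

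Some antisense RNAs moved while the sense gene did not pass. FAM13A-AS1 had 11.1, 10.4 and 6.49 CPM untreated and 31.6, 18.4 and 24.4 CPM in FIR, a 2.75-fold rise (log2 fold change 1.46, SE 0.20, adjusted p = 2.9e-05 in edgeR), while FAM13A changed by -0.21 (SE 0.14, adjusted p = 0.23). Without untreated library 1 or FIR library 2 FAM13A passed as lower (log2 fold change -0.34 and -0.38, adjusted p = 0.041 and 0.029). UXT-AS1 fell by 1.22, from 2.91, 2.81 and 3.15 CPM to 1.45, 1.15 and 1.04 CPM, while UXT, a prefoldin-like cofactor, changed by -0.16 (adjusted p = 0.25 in edgeR). EP300-AS1, opposite the far end of the acetyltransferase gene EP300, fell by 1.19 (SE 0.34, adjusted p = 0.0085 in edgeR), while EP300 changed by 0.20 (adjusted p = 0.072). GABPB1-AS1, opposite a subunit of the GABP transcription factor, was the fourth most abundant member and fell by 0.54, from 74.6, 83.6 and 114 CPM to 65.3, 59.5 and 55.5 CPM, while GABPB1 changed by -0.12 (adjusted p = 0.51 in edgeR). ZNF667-AS1, the fifth most abundant, showed the reverse. It stood at 45.1, 53.2 and 54.5 CPM untreated and 47.8, 50.6 and 47.4 CPM in FIR (adjusted p = 0.93 in edgeR), and ZNF667, a zinc-finger gene, rose by 0.80.

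Per length, most antisense RNAs stood below their sense genes, with median levels of 1.86 RPKM against 6.10 RPKM. The antisense RNA stood above the sense gene in 67 pairs in untreated and 66 in FIR libraries, 61 of them in both. It stood above only in FIR for TAF1A, CCDC183, LAMA5, CBR3 and ZNF582, and only in untreated for MAST4, TMC3, CKMT2, ZNF667, SLC5A4 and GDNF. Of these 11 pairs the ratio change passed in limma for MAST4, TMC3, ZNF667 and CBR3. In ZNF667 the antisense level per length went from 1.52 to 0.862 times the sense level, and in CBR3 from 0.945 to 2.45 times.

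The pairs differ in how the genes lie. In 103 pairs the spans overlap head to head, in 49 tail to tail, in 33 the antisense gene lies inside the sense gene, in 20 the sense gene lies inside the antisense gene, and in 30 the genes diverge with their spans apart. Antisense RNAs rose in 16 and fell in 19 of the head-to-head pairs, rose in 12 and fell in 4 of the tail-to-tail pairs, and rose in 8 and fell in 10 of those inside the sense gene. They rose in 7 and fell in 1 of those that span the sense gene, and rose in 7 and fell in 3 of the divergent pairs. Over all genes 25.4% rose and 23.4% fell, and no arrangement was tested against that share or against another. Of the 15 opposite pairs, 8 are head to head, 3 tail to tail, 3 have the antisense gene inside, 1 has the sense gene inside, and none is divergent. The correlation of antisense and sense changes was 0.32 over the head-to-head pairs, 0.30 tail to tail, 0.58 inside the sense gene, 0.53 divergent and 0.71 where the antisense gene spans the sense gene (Pearson r across pairs that share the same libraries). Of 94 pairs with start sites within 1 kb of each other, 25 antisense RNAs were called (26.6%), and of 141 with start sites farther apart, 62 (44.0%). The difference between these shares was not tested. Where exons of the pair overlap on opposite strands (175 pairs) 37.1% of the antisense RNAs were called, and where they do not (60 pairs) 36.7%.

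**Figure D4:**
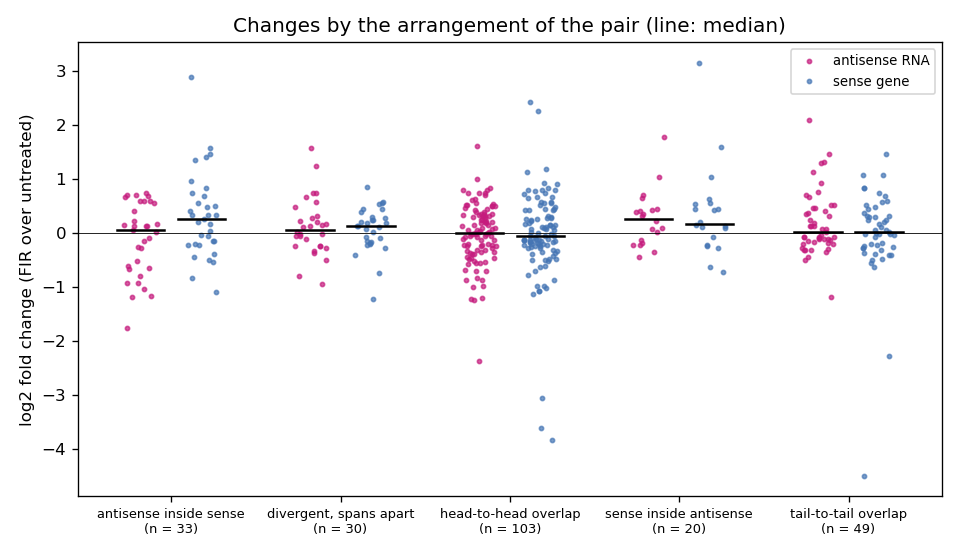
Log2 fold change (FIR over untreated) of each antisense RNA and its sense gene by the arrangement of the pair, with 1 point per gene and a line at each median. The medians lie near 0 in every arrangement, between -0.05 and 0.27, and the lowest point is OIP5, at -4.50 among the sense genes of the 49 tail-to-tail pairs.

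Whether the counting used strand is not given in the sources used here, and without strand the reads of overlapping antisense and sense exons cannot be told apart. The share of exon bases that lie inside exons of the sense gene had a median of 4.09% over the members and a maximum of 69.9%. Which antisense genes have a row at all varied with overlap. Of the antisense-type genes in GENCODE 29 with no exon base inside exons of a listed gene on the other strand, 421 of 3333 (12.6%) had a row. With an overlap of up to 25% this was 473 of 1068 (44.3%), then 196 of 515 (38.1%) up to 50%, 66 of 250 (26.4%) up to 75% and 15 of 118 (12.7%) up to 95%. Of 299 genes with more than 95% of their exon bases so overlapped, 0 had a row. Antisense RNAs that lie almost wholly under exons of a listed gene are therefore outside what these counts show.

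**Figure D5:**
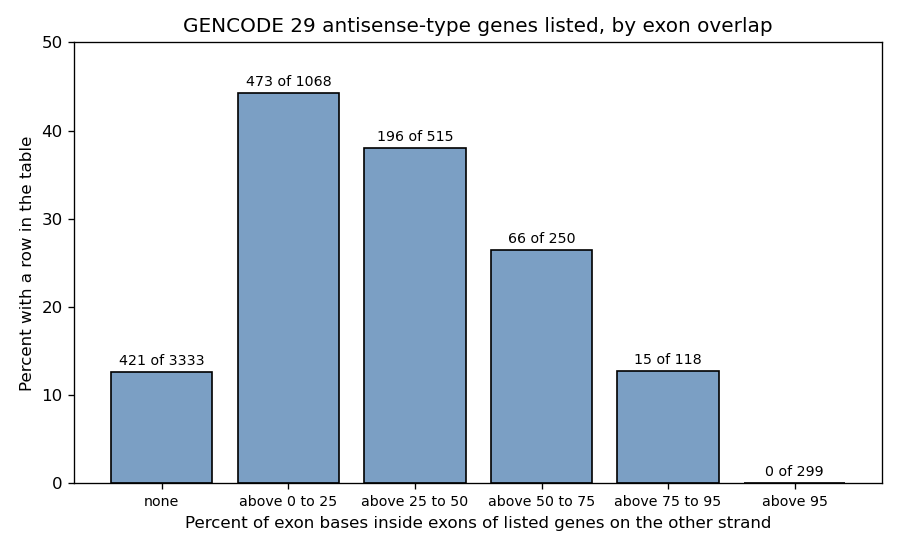
Percent of GENCODE 29 antisense-type genes that have a row in the deposited table (vertical axis), by the percent of their exon bases inside exons of listed genes on the other strand (horizontal axis). The share is 12.6% with no overlap and 44.3% at small overlaps, then falls to 12.7% between 75% and 95%, and is 0 above 95%.

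Among antisense RNAs with a known role or a record in cancer, 19 of 52 listed had a row, of which 5 rose, 6 fell and 8 did not pass, with a median log2 fold change of -0.10, where 25.4% of all genes rose and 23.4% fell with a median of 0.01. Besides TMPO-AS1, FOXP4-AS1, MNX1-AS1 and OIP5-AS1, those that fell were CDKN2B-AS1, also called ANRIL and transcribed beside the cell cycle inhibitors p15 and p16 (log2 fold change -3.28), and PRKAG2-AS1 (log2 fold change -1.06). CDKN2B-AS1 averaged 1.72 ± 0.438 CPM untreated and 0.169 ± 0.242 CPM in FIR (SD, n = 3) and PRKAG2-AS1 2.48 ± 0.789 and 1.14 ± 0.728 CPM, so both fell short of the 2 CPM limit. Those that rose were EGFR-AS1, VIM-AS1, HOTAIRM1, ST7-AS1 and LIFR-AS1, with log2 fold changes of 2.62, 1.81, 1.28, 1.20 and 0.71 from untreated means of no more than 1.99 CPM. Every gene with a row reached 0.605 CPM in 3 libraries, so EGFR-AS1, VIM-AS1 and CDKN2B-AS1 may have entered through their higher group alone. Their lower-group means were 0.134, 0.323 and 0.169 CPM. The part of this filter in the counts of the list was not tested. The call of LIFR-AS1 was lost without untreated library 1 or 3 or FIR library 1 or 3 (adjusted p from 0.055 to 0.12) and in DESeq2 (adjusted p = 0.058), while LIFR, a cytokine receptor gene, rose by 0.75. Members on the list that did not pass included MCM3AP-AS1 (log2 fold change -0.10, adjusted p = 0.49), FOXD3-AS1 (0.09, adjusted p = 0.81), SEMA3B-AS1 (0.14, adjusted p = 0.63) and KDM4A-AS1 (-0.32, adjusted p = 0.18). TTN-AS1, opposite the gene of the muscle protein titin, changed by 0.72 (adjusted p = 0.063) and passed without untreated library 3 or FIR library 2 (log2 fold change 0.90 in both, adjusted p = 0.033 and 0.029).

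Genes that act on antisense RNA in general were also read. Of 36 measured genes of the nuclear exosome, its cofactors and early termination, 2 rose, 16 fell and 18 did not pass, with a median log2 fold change of -0.20, where 25.4% of all genes rose, 23.4% fell and the median was 0.01. The largest falls were those of EXOSC8 and EXOSC6, subunits of the exosome core, by 1.45 and 0.95, and the rises were those of the exonuclease XRN2 (0.54) and the cap-binding NCBP2 (0.44). Of 24 measured genes that bind, edit, cut or sense double-stranded RNA, 9 rose, 6 fell and 9 did not pass, with a median of 0.14, beside the same shares of all genes. ADARB1, an RNA-editing deaminase, rose by 1.33 and ZNFX1, a helicase-like sensor of viral RNA, by 1.23, while OAS3, which makes oligoadenylates on double-stranded RNA, fell by 2.16 and ILF2, an RNA-binding complex subunit, by 0.57. Summed levels of the first list were 2355 to 2479 CPM untreated and 2049 to 2068 CPM in FIR, and of the second 2451 to 2794 and 2531 to 2567 CPM. Their part in the changes of the antisense RNAs was not tested.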

How the data were processed

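A single table covers 16311 genes in 6 LNCaP libraries. For every gene the deposited table holds unnormalized counts of reads in each library, per the file headers. It also holds exon lengths and the authors' log2 fold changes and adjusted p-values, per the file headers. Software named in the submitters' processing notes, without roles, is bcl2fastq, featureCounts from Subread 1.6.2, STAR 2.5 and edgeR 3.20.8, with the build hg38. Strand setting, annotation release and low-gene filter: not given in the sources used here. Every gene reached 0.605 CPM in 3 libraries, so scarce genes may have entered through their higher group, and filterByExpr removed none.

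The members, gene lists and tests were chosen with earlier results of these data known. Counts were scaled by TMM and fitted in edgeR 4.0.16 (R 4.3.3, glmQLFit and glmQLFTest) on the group alone, with Benjamini-Hochberg adjustment over all genes (threshold 0.05). RPKM is CPM per kilobase of the deposited exon length. Log2 ratios per library used a pseudocount of 0.5 reads. Ratios were tested with limma 3.58.1 on voom-weighted values over all opposite-strand pairs, a test chosen after seeing the data. Strand, start sites and exon overlap of the pairs came from the deposited annotation. GENCODE 29 gave gene types, and the exons of antisense-type genes for the shares that had a row. ARHGEF26 has several rows, of which the one opposite ARHGEF26-AS1 was used. The authors' deposited table has 54 members higher and 37 lower at the same threshold, including all 87 called here.

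Genes named were, by rule, among called antisense RNAs the 8 that rose most and the 8 that fell most without overlap of groups, up to 10 opposite pairs, the 4 largest ratio gains and losses, the 5 most abundant, members on the list of characterised antisense RNAs, and the 2 called genes of largest change from the other lists. HPN, NOP14, PPP1R26, the partners listed by name around the 2-fold limit and those that crossed in level per length were named after their values were seen. One pair that the rule picks is not reported here. Libraries of 1 group differed by more than sampling noise (chi-square per gene 4.82 to 14.9), so none looked like a second sequencing of another, which does not show that cultures were separate. Alternatives were RLE and library-total scaling, DESeq2 1.42.0, limma-voom, a filter of 1 CPM in 3 libraries, member limits of 1 and 5 CPM, another pseudocount, the replicate block and each library left out. The pipeline was tested on simulated data.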

Additional observations from a re-analysis of the deposited data

How the results depend on the processing

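With 1 library left out, antisense RNAs called higher numbered 35 to 55 and lower 30 to 39, sense genes 64 to 79 and 43 to 55, and pairs in the same direction 32 to 42. Opposite pairs ranged from 7 (without FIR library 3) to 16, with 9 without untreated library 2, against 15 with all libraries. Non-overlapping ratios numbered 56 to 67 higher and 66 to 72 lower, fewer libraries making separation easier. With a member limit of 5 CPM, which leaves fewer pairs, 44 sense genes were higher, 26 pairs went the same way and 41 ratios were lower. The limma test of the ratios, chosen after seeing the data, called 32 higher and 41 lower, where 52 and 62 did not overlap.

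Scaling by library totals alone moved the median of all genes by -0.05 and gave 41 antisense RNAs higher and 44 lower. RLE scaling gave 47 and 37, DESeq2 43 and 35, limma-voom 51 and 35. Of 80 antisense and sense genes named by rule, 14 changed call in at least 1 of 13 settings, and none reversed.

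Replicate numbers showed no pairing of the libraries: deviations of same-numbered libraries from their group means correlated at 0.06, -0.07 and -0.10. Those of unlike-numbered libraries correlated at -0.20 to 0.22. With 3 libraries in each group these values cannot decide whether cultures or batches were paired. With the replicate block, 48 antisense RNAs were higher and 35 lower, 75 and 49 sense genes, 41 pairs went the same way and 14 opposite ways. Among the 80 genes named by rule, the calls that changed under it were those of ATP6V0E2-AS1, lost (adjusted p = 0.065), and CCDC18-AS1, gained (adjusted p = 0.016).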

Other observations

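Of the 147 rows with a sense gene and a mean under 2 CPM, 27 were higher and 13 lower in FIR in edgeR's quasi-likelihood test with Benjamini-Hochberg adjustment, where 25.4% of all genes were higher and 23.4% lower. At these levels a gene could be listed through the group where it was higher, so these counts describe listed rows only.

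Of the 14 antisense RNAs that reached 2 CPM without a row for the sense gene, the most abundant were FGD5-AS1, with a mean of 125 CPM in untreated and 104 CPM in FIR libraries, and ST8SIA6-AS1, with 77.4 and 68.5 CPM. GPC5-AS1, opposite the gene of a glypican, had means of 3.51 and 9.15 CPM, and CYP4A22-AS1, opposite a cytochrome P450 gene, 1.21 and 3.68 CPM. SNTG2-AS1 stood lower in FIR, at 2.94 and 1.78 CPM. These are levels without a test.

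Among 16 members whose sense gene is named ZNF, the antisense RNA rose in 4 and fell in 1, and the sense gene rose in 7 and fell in 1, where 25.4% of all genes rose and 23.4% fell. ZNF350 had the largest antisense rise of the 235.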
